A study of Mus musculus with 36 samples.

Results

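The interferon response genes described here are a list of 45 mouse genes that interferons induce, or that carry the interferon signal into the nucleus, followed in the liver of mice fed a control diet or a diet with tomato powder. The members were taken by gene symbol from a named list, which was drawn up with earlier results of these data known. All 45 had an identifier among the 53715 in the deposited count table, and 42 of them belonged to the 14068 genes with enough counts to be tested. Liver RNA came from 36 male C57BL/6 mice aged 10 weeks, an inbred strain for which the labels name no engineered allele. From 4 weeks of age the mice had eaten the purified diet AIN93G alone (12 libraries), AIN93G with 10% red tomato powder (12 libraries) or AIN93G with 10% tangerine tomato powder (12 libraries) for 6 weeks. The labels mention no infection and no interferon treatment in any group. Each library carries its own number, read as the number of the mouse, and a library is called below by its diet and that number. The comparison of the diets asks whether tomato powder, or its variety, went with another level of these genes in the liver.

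Interferons are secreted proteins that warn cells of infection. Type I interferons bind the receptor made of IFNAR1 and IFNAR2, whose kinases JAK1 and TYK2 activate a factor that contains STAT2 and IRF9 and binds a promoter element called the interferon-stimulated response element (ISRE). Interferon gamma, the type II form, signals to another element, the gamma-activated site (GAS), and it is the stronger inducer of the guanylate-binding GTPases and of the antigen processing genes. Healthy liver cells, Kupffer cells and endothelial cells among them, keep many of these genes at a low tonic level without any infection.

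The libraries held 21290169 to 33810573 counts each (median 27002946). Levels are given as CPM, the count of a gene relative to the library total after edgeR's scaling of library sizes. The summed level of 6 hepatocyte markers lay between 83630 and 124800 CPM in every library. Red 186 stood apart by T cell transcripts, whose 12 markers summed to 374.6 CPM there and to at most 12.4 CPM in any other library. Control 137 and Tangerine 225 had the lowest sums of 6 sinusoidal endothelial markers, 46.7 and 71.5 CPM against medians of 150.4 and 150.5 CPM in their diets, and the lowest sums of 8 Kupffer cell markers, 85.8 and 119.8 CPM. Tangerine 216 held 12.7 CPM of pancreas transcripts, and Tangerine 192 had the highest sums of 7 neutrophil markers, 5.27 CPM against at most 1.35 CPM elsewhere, and of 5 monocyte markers, 14.2 CPM. The diets also differed in a clock score, the first principal component of 12 circadian clock genes with Dbp high at its upper end. Its median was 1.93 in control, -2.87 in red and 1.43 in tangerine livers.

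Interferon transcripts themselves were nearly missing from the counts. Of 21 interferon genes looked up, all but Ifng and Ifnz were listed at 0 in every library, among them Ifnb1 and the Ifna genes. Ifng, which encodes interferon gamma, had 16 counts in all, spread over 11 libraries. A listed 0 cannot be read as absence in this table, because B2m, the light chain that every class I molecule needs, was also listed at 0 in every library while H2-K1, a class I heavy chain, averaged 798.8 CPM. The receptor chains were measured throughout. Ifnar1 averaged 34.3 CPM and Ifnar2 32.4 CPM for type I interferons, and Ifngr1 16.7 CPM and Ifngr2 14.2 CPM for interferon gamma. Ifnlr1, the chain specific to type III interferons, had 76 counts over all libraries and was not tested. No receptor gene passed the test in any diet contrast.

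Members were compared with each other by CPM per kilobase of exon. Bst2, which encodes tetherin, a membrane protein that holds budding virus on the cell, had the highest level at 85.7 CPM per kb. Iigp1, an immunity-related GTPase that attacks the vacuoles of parasites, followed at 45.1, then Ifi27 at 23.4, the ubiquitin ligase gene Trim25 at 13.0 and the GTPase gene Irgm2 at 12.0 CPM per kb. The lowest of the tested members were Oas3 at 0.0891, Mx1 at 0.172 and Oas2 at 0.241 CPM per kb, all genes of antiviral effectors. The other 3 members, all GTPase genes, were not tested: Ifi47 and Igtp were listed at 0 in every library and Gbp6 had 4 counts in all. Gbp6 shares 70.7% of its 50-base stretches with its neighbours and Igtp starts 62 bases from Irgm2 on the same strand. How reads shared between genes were counted is not given in the sources used here. All 42 tested members reached the filter level in at least 30 of the 36 libraries, so none entered the test through 1 diet alone.

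The members varied more between mice of a diet than most liver genes did. The SD of log2 CPM within a diet had a median of 0.367 over the 42 tested members against 0.243 over all genes tested, and 75% of all genes lay below the members' median. Stat2, Ddx58 and Ifih1 were the steadiest, with SDs of 0.155, 0.159 and 0.163. Oas3, Ifit1 and Rsad2 were the most variable, with SDs of 0.575, 0.528 and 0.526. The highest library exceeded the lowest 10.5-fold for Oas3 and 1.74-fold for Stat2. Oas3 had 4 to 45 counts per library and Stat2 1069 to 2394. The SDs were not corrected for the noise of low counts, and the comparison with all genes was not matched for level.

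**Figure D1:**
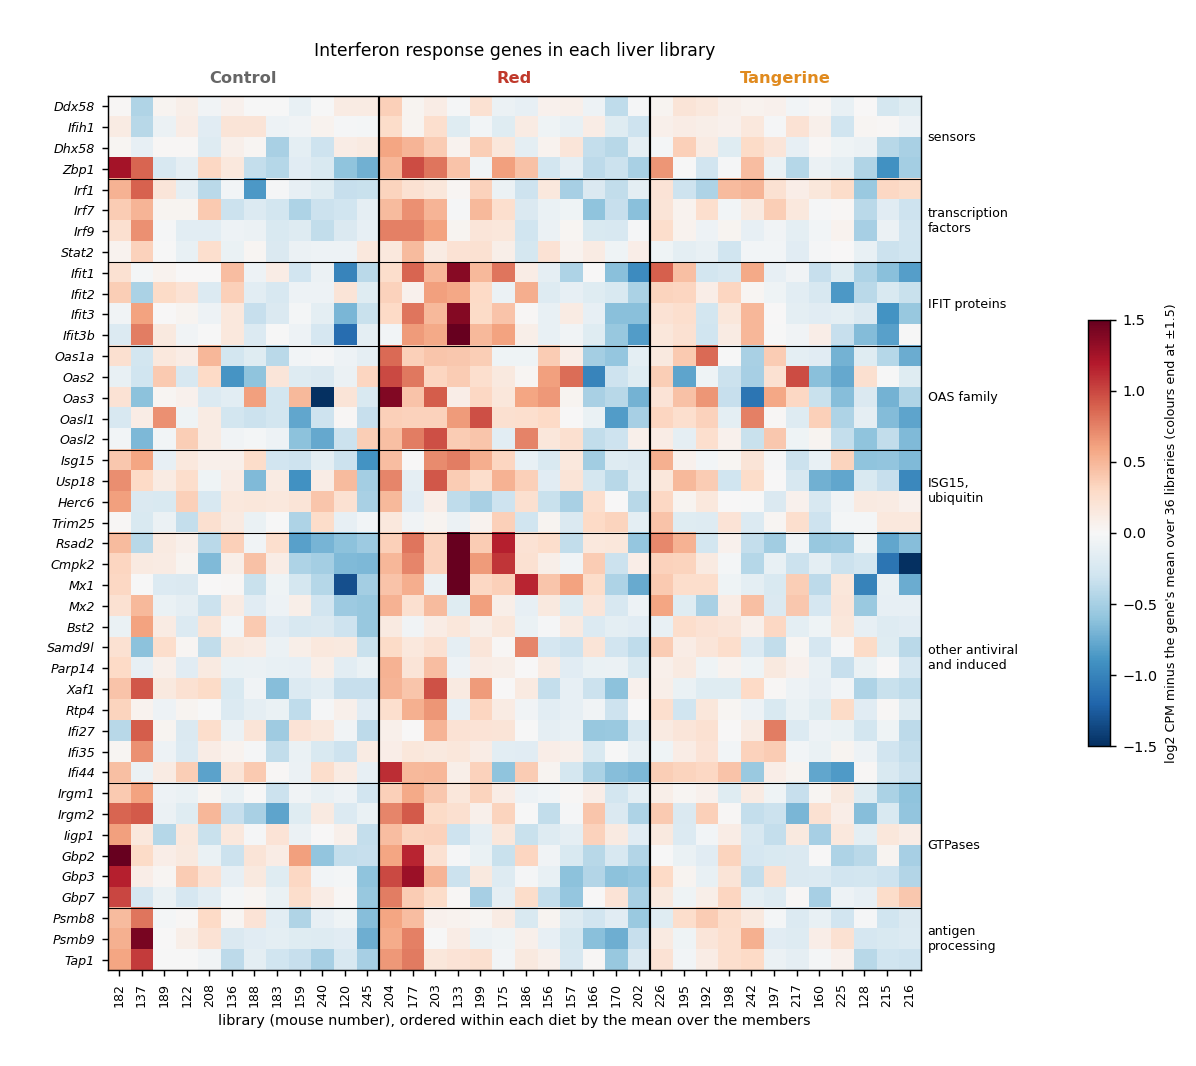
Level of the 42 tested members (rows, grouped by role) in the 36 libraries (columns, grouped by diet and ordered by the mean over the members). Colour is log2 CPM minus the gene's mean over all libraries, with colours ending at 1.5 in either direction. Control 182 stands out in the GTPase rows, Control 137 in the antigen processing rows, Red 133 in the IFIT rows and Red 204 in the OAS rows.

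Few members passed the test of any diet contrast. In edgeR's quasi-likelihood test, 0 of 42 members passed for red against control, where 0.149% of all genes did. An unadjusted p under 0.05 was found for 6 members (14.3%, against 13.3% of all genes), all higher on red tomato (6.67% of all genes). For tangerine against control 0 of 42 passed (0.0142% of all genes), with 2 at an unadjusted p under 0.05 (5.47% of all genes), both lower on tangerine tomato (3.16%). For both tomato diets together against control 0 of 42 passed (0.00711%), with 1 at an unadjusted p under 0.05 (6.77%). For tangerine against red 2 of 42 passed, which is 4.76% of members against 1.71% of all genes. Both were lower on tangerine tomato, as were 0.981% of all genes. An unadjusted p under 0.05 was found for 8 members (15.1% of all genes), all lower on tangerine tomato (8.52%). The test for any difference among the diets passed 0 of 42 (1.18% of all genes), with 5 at an unadjusted p under 0.05 (13.9%). The contrasts share libraries, so their counts are not separate pieces of evidence.

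By direction, 34 of the 42 members had a higher estimate in red than in control livers (6823 of 14068 over all genes). The members' median log2 difference was 0.128 (all genes -0.00474). The members with a higher estimate numbered 34 under DESeq2 size factors and 33 with the clock score in the model. They numbered 32 without Red 186 and Tangerine 216 and 36 without Control 137 and Tangerine 225. None of these fits left out Red 177, Red 203 or Red 204, which were among the 3 highest libraries for 19, 15 and 18 members. Against control, the members' median in tangerine livers was -0.00769 (all genes -0.0118). A higher estimate was found for 15 members and a lower one for 27 (6280 and 7788 over all genes). That split moved to 19 higher and 23 lower under DESeq2 size factors, and to 23 higher and 19 lower without Red 186 and Tangerine 216. Between the tomato diets, 35 members had a lower estimate in tangerine livers (7239 over all genes), with a median of -0.201 (all genes -0.00455). The split of the members was the same under DESeq2 size factors. Without Red 186 and Tangerine 216 it was 34, and with the clock score in the model 35. The highest library of a member was a red liver for 27 members, a control liver for 13 and a tangerine liver for 2. Few libraries held most of these: Red 204 (8), Red 133 (7), Red 203 (5), Red 177 (4), Control 137 (8) and Control 182 (5). The same count over all genes was not made. Many members moved together between mice, as the slopes on Irf7 below show, so these counts are not separate observations. Red 203 and Red 204 each lay above the member's median over all libraries for 41 of 42 members, and Red 177 for 38. Red 170 did so for 5 members and Red 202 for 7.

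The first member to pass between the tomato diets was Stat2 (chromosome 10, 128270559 to 128292849, plus strand, GRCm38), which encodes the subunit that gives the type I interferon factor its activating domain. Its lowest, median and highest library stood at 49.4, 56.1 and 73.2 CPM in control livers, 48.1, 62.7 and 79.95 CPM in red-fed and 46.0, 53.3 and 57.7 CPM in tangerine-fed livers. No tangerine liver reached the median of the red livers and 3 lay below the lowest red liver, while the other 9 overlapped the red range. Stat2 was lower on tangerine than on red tomato by a log2 fold change of -0.26 (SE 0.0637, fold 0.833, adjusted p = 0.0251 in edgeR's test, n = 12 per diet). In bulk liver, fewer cells of a type that expresses a gene and less of its RNA per cell cannot be told apart. Against control, the estimate for Stat2 was 0.11 (SE 0.0637, adjusted p = 0.471) on red and -0.15 (SE 0.0638, adjusted p = 0.811) on tangerine tomato in edgeR's test.

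The other was Cmpk2 (chromosome 12, 26469204 to 26479837, plus strand, GRCm38), which encodes a mitochondrial nucleotide kinase. Its lowest, median and highest library stood at 1.80, 3.045 and 3.97 CPM in control livers, 2.32, 3.78 and 8.79 CPM in red-fed and 0.880, 2.51 and 3.72 CPM in tangerine-fed livers. Again no tangerine liver reached the red median, 4 lay below the lowest red liver, and the remaining 8 overlapped the red range. Cmpk2 was lower on tangerine than on red tomato by a log2 fold change of -0.75 (SE 0.197, fold 0.593, adjusted p = 0.0367 in edgeR's test, n = 12 per diet). Against control it stood at 0.63 (SE 0.196, adjusted p = 0.133) on red and -0.12 (SE 0.201, adjusted p = 0.9999) on tangerine tomato in edgeR's test.

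Both calls were close to the threshold. Leaving out Tangerine 215 or Tangerine 216 ended the call of Stat2 (adjusted p = 0.0542 and 0.0597), and leaving out any of Tangerine 128, 215, 216, 217 or 242 or of Red 133, 175, 177 or 199 ended that of Cmpk2 (adjusted p up to 0.0898, edgeR). With the clock score in edgeR's model, Stat2 had the same log2 fold change of -0.26 at an adjusted p of 0.210, Cmpk2 had -0.43 at 0.438, and 0 of 14068 genes passed. Markers of other cells were read in the same fit. All 8 Kupffer cell markers had a higher estimate for red against control (median 0.169) and a lower one for tangerine against red (median -0.111), with 0 past the threshold in either, with sums of 85.8 to 285.6 CPM on control, 177.2 to 320.6 CPM on red and 119.8 to 269.4 CPM on tangerine tomato and no marker at 0. The part of the Kupffer cell markers in the result was not tested. Of 7 tested T cell markers 4 passed as lower on tangerine than on red tomato (median -2.37), and without Red 186 0 did (median 0.177). Stat2 also passed without Red 186 and Tangerine 216, and without Control 137 and Tangerine 225. Cmpk2 kept nearly the same log2 fold change in these fits, -0.70 (adjusted p = 0.0752) and -0.74 (adjusted p = 0.0503) in edgeR's test, without passing.

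Rsad2 (chromosome 12, 26442746 to 26456452, minus strand, GRCm38) starts 12.8 kb from Cmpk2 on the opposite strand and encodes viperin, a radical enzyme that makes a chain-terminating nucleotide from the product of CMPK2. Rsad2, Mx1, Dhx58, Zbp1, Herc6 and Oasl2 were picked for description after their values were seen. The median of Rsad2 was 3.79 CPM in control livers, 5.49 CPM in red-fed and 3.55 CPM in tangerine-fed livers, and the 12 red livers ran from 2.92 to 16.01 CPM. In 10 of 12 red livers it was above the control median, yet its estimates of 0.67 (SE 0.217, adjusted p = 0.154) for red against control and -0.68 (SE 0.217, adjusted p = 0.0990) for tangerine against red did not pass edgeR's test. Leaving out Tangerine 226 brought it past the threshold for tangerine against red. Without Red 133, its highest library, the estimates shrank to 0.467 (adjusted p = 0.314) for red against control and -0.475 (adjusted p = 0.238) for tangerine against red in edgeR's test. Mx1 encodes a dynamin-like GTPase that blocks influenza virus in mice with an intact copy, and most inbred strains carry a disrupted one. It had a median of 0.508 CPM in control livers, 0.808 CPM in red-fed and 0.559 CPM in tangerine-fed livers. Its estimate for red against control, 0.74 (SE 0.216, adjusted p = 0.112 in edgeR's test), was the largest of any member, and 7 of 12 red livers lay above the highest control liver. Mx1 was scarce, with 5 to 47 counts per library, and highest in Red 133 and Red 186. The estimate was 0.599 without Red 133 (adjusted p = 0.209) and 0.649 without Red 186 and Tangerine 216 (adjusted p = 0.15) in edgeR's test.

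**Figure D2:**
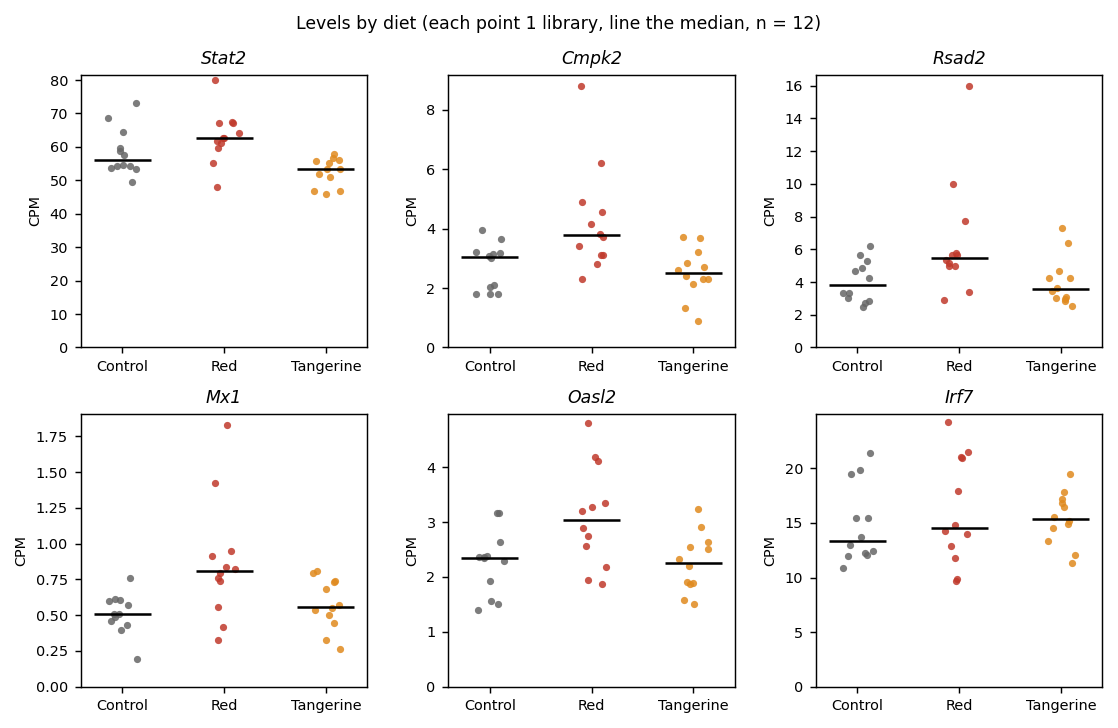
Level of 6 members (Stat2, Cmpk2, Rsad2, Mx1, Oasl2 and Irf7) by diet in CPM (each point 1 library, the line the median, 12 libraries per diet). All tangerine livers lie under the red median for Stat2 and Cmpk2, the ranges of the diets overlap in every panel, and 1 red liver (Red 133) is the highest for Cmpk2, Rsad2 and Mx1.

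The promoters of Stat2 and Cmpk2 are shown because these members passed between the tomato diets, and that of Rsad2 because it is the neighbour of Cmpk2. Sequences are the 250 bases before the start site, from RefSeq on GRCm38.p6, written 5′ to 3′ on the strand of the gene, with any ISRE-type match (GAAA, any 2 bases and GAAA again, or on the other strand TTTC, any 2 bases and TTTC, overlapping matches counted) in capitals. The Stat2 window (chr10:128270248-128270497, plus strand) held 1 match, 222 bases before the start. The Rsad2 window (chr12:26456453-26456702, minus strand) held 1 match at 120 bases, and the Cmpk2 window (chr12:26468965-26469214, plus strand) held none.
Stat2: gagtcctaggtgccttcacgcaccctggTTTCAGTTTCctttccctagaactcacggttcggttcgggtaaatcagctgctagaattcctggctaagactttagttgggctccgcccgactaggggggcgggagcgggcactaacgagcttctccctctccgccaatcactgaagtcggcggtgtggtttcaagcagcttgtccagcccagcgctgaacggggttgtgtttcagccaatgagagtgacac
Rsad2: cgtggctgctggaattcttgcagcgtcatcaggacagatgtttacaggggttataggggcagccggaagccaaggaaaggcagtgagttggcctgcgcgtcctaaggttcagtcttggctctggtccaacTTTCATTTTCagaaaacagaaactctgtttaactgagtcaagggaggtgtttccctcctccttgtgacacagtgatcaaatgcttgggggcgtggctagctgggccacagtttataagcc
Cmpk2: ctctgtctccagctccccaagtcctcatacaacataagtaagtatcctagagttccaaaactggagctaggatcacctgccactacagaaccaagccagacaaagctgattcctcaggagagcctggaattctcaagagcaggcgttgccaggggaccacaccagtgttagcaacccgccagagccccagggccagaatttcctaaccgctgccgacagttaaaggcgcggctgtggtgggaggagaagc

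Over the whole list, 34 of the 45 members had such a window, and 15 of the 34 (44.1%) held the ISRE pattern against 936 of 27025 genes (3.46%). The GAS pattern TTCNNNGAA, which reads the same on both strands, occurred in the windows of 8 of the 34 members (23.5%) against 8.13% of all genes. By role, the ISRE pattern was found for 6 of 7 GTPase genes, 3 of 4 IFIT genes and 2 of 4 OAS genes, and for 0 of 3 antigen processing genes. A match of letters is a description and does not show that a factor bound there in liver.

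Among the sensors of viral nucleic acid, Zbp1 varied between mice far more than the RNA helicases. Ddx58 (RIG-I) and Ifih1 (MDA5), helicases that detect viral RNA, had log2 differences from control between -0.01 and 0.05 on either tomato diet, and 0 of 4 sensor genes passed in any contrast. Dhx58 (LGP2), which modulates both, had medians of 5.74, 6.11 and 5.47 CPM on control, red and tangerine tomato, and 6 of 12 red livers were above the highest control liver. Its estimate for red against control was 0.20 (SE 0.105, adjusted p = 0.425 in edgeR's test). Zbp1, a sensor of Z-form nucleic acid that can trigger necroptosis, spanned 4.63-fold between libraries, from 1.29 CPM in Tangerine 215 to 5.98 CPM in Control 182.

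Among the transcription factors, Irf7, the factor that amplifies type I interferon production, ranged (lowest, median, highest library) over 10.9, 13.3 and 21.4 CPM in control livers, 9.71, 14.6 and 24.3 CPM in red-fed and 11.4, 15.4 and 19.5 CPM in tangerine-fed livers. The 3 ranges overlapped, with the highest and the lowest library both on red tomato. Its log2 difference was 0.12 (SE 0.136, adjusted p = 0.745) for red and 0.06 (SE 0.136, adjusted p = 0.9999) for tangerine against control in edgeR's test. Irf1, a factor strongly induced by interferon gamma, stood at 12.3, 20.5 and 41.5 CPM in control livers, 15.9, 22.04 and 28.6 CPM in red-fed and 15.3, 26.1 and 31.9 CPM in tangerine-fed livers. Its lowest and its highest library were both control livers, Control 188 and Control 137, and its log2 difference from control was 0.00 on red (SE 0.144, adjusted p = 0.9995) and 0.15 on tangerine tomato (SE 0.144, adjusted p = 0.9999) in edgeR's test. Without Control 137 these were 0.115 and 0.26, neither past the threshold. Irf9, the DNA-binding subunit of the type I factor, had an estimate of 0.22 for red against control (SE 0.117, adjusted p = 0.421), which did not pass edgeR's test.

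The 4 IFIT genes, whose products bind foreign RNA ends and stop their translation, all had positive estimates for red against control, with a median of 0.353, and all negative ones for tangerine against red, with a median of -0.349. None passed. Ifit1 ranged (lowest, median, highest library) over 1.93, 3.85 and 5.40 CPM in control livers, 1.98, 4.44 and 10.2 CPM in red-fed and 2.16, 3.36 and 7.33 CPM in tangerine-fed livers. In red livers, 5 of 12 were above the highest control liver, and Red 133 was the highest of all. Its log2 difference for red against control was 0.37 (SE 0.21, adjusted p = 0.452 in edgeR's test), and 0.228 without Red 133 (adjusted p = 0.697). Red 133 was also the highest library for Ifit3 and Ifit3b, and without it the median of the IFIT genes for red against control was 0.187 and for tangerine against red -0.187. Ifit3 shares 51.2% of its 50-base stretches with Ifit3b, so counts may have been split between them.

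Their promoters are shown because this likeness reaches upstream of the genes: each window holds a pair of ISRE-type matches with the same letters, at 156 and 122 bases before the start of Ifit3 (chr19:34583279-34583528, plus strand) and at 188 and 154 bases before that of Ifit3b (chr19:34607707-34607956, plus strand), on RefSeq's GRCm38.p6 with the matches in capitals.
Ifit3: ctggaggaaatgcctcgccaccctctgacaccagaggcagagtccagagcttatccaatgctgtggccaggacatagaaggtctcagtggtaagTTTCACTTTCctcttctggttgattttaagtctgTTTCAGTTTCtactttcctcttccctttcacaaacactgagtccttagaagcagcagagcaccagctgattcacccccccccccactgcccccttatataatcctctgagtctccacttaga
Ifit3b: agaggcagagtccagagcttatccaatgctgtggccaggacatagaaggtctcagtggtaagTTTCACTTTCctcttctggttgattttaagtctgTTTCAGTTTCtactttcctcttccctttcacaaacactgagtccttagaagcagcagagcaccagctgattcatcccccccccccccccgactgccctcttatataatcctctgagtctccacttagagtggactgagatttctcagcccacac

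The 5 genes of the OAS family encode enzymes, or their relatives, that sense double-stranded RNA and in the active forms make 2-5A to switch on RNase L. All 5 had positive estimates for red against control, with a median of 0.425, and negative ones for tangerine against red, with a median of -0.365, and 0 of 5 passed in either. With the clock score in the model 1 of the 5 turned positive for tangerine against red. Oasl1, which restrains IRF7 translation, ranged (lowest, median, highest library) over 4.07, 5.90 and 11.4 CPM in control livers, 3.91, 8.58 and 13.9 CPM in red-fed and 4.07, 6.79 and 11.95 CPM in tangerine-fed livers. In 10 of 12 red livers it was above the control median, with ranges that overlapped, and its log2 difference for red against control was 0.34 (SE 0.17, adjusted p = 0.385 in edgeR's test). Oasl2 stood at 0.45 (SE 0.153, adjusted p = 0.178) for red against control and at -0.45 (SE 0.153, adjusted p = 0.126) for tangerine against red in edgeR's test. Oas1a was highest in Tangerine 192, at 2.91 CPM, and its estimate for tangerine against control was -0.00241 with that library and -0.119 without it. Oas1a shares 57.6% of its 50-base stretches with Oas1g and Oas1b, so its counts are uncertain.

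In the ISG15 system, Isg15 encodes the ubiquitin-like tag itself, Herc6 the ligase that attaches it in mice and Usp18 the protease that removes it and also holds back the type I receptor. Isg15 ranged (lowest, median, highest library) over 2.60, 4.82 and 7.41 CPM in control livers, 3.39, 5.20 and 8.42 CPM in red-fed and 3.08, 4.79 and 7.10 CPM in tangerine-fed livers. Usp18 was scarce, at 0.348, 0.784 and 1.204 CPM in control livers, 0.519, 0.852 and 1.43 CPM in red-fed and 0.330, 0.598 and 1.03 CPM in tangerine-fed livers. The ranges of both genes overlapped between all diets. The log2 differences for tangerine against red were -0.26 (SE 0.156, adjusted p = 0.445) for Isg15 and -0.39 (SE 0.196, adjusted p = 0.340) for Usp18 in edgeR's test. Herc6 had a median of 5.07 CPM in red against 6.75 CPM in control livers and all 12 tangerine livers above the red median. Its estimates of -0.22 (SE 0.113, adjusted p = 0.397) for red against control and 0.13 (SE 0.113, adjusted p = 0.603) for tangerine against red did not pass edgeR's test.

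Of the further induced members, Ifi27 and Ifi44 had diet ranges that overlapped widely. Ifi27 ranged (lowest, median, highest library) over 23.2, 33.4 and 62.95 CPM in control livers, 22.5, 33.5 and 47.9 CPM in red-fed and 25.4, 32.8 and 56.95 CPM in tangerine-fed livers. Ifi44 was at 0.794, 1.57 and 2.01 CPM in control livers, 0.877, 1.51 and 3.20 CPM in red-fed and 0.772, 1.48 and 1.97 CPM in tangerine-fed livers. In edgeR's test, their log2 differences for red against control were -0.06 (SE 0.135, adjusted p = 0.881) for Ifi27 and 0.02 (SE 0.187, adjusted p = 0.976) for Ifi44. That of Ifi27 was 0.0459 without Control 137. Mx2, the sister of Mx1, carries the annotation of a polymorphic pseudogene in this strain's reference.

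The interferon-inducible GTPases had their highest mean in a control liver. Gbp2, a guanylate-binding protein gene, ranged (lowest, median, highest library) over 3.12, 5.12 and 16.5 CPM in control livers, 3.47, 4.51 and 10.6 CPM in red-fed and 3.34, 4.14 and 6.01 CPM in tangerine-fed livers. Control 182 gave the highest value of Gbp2, Gbp7 and Iigp1, and over the 6 tested GTPase genes it stood 0.971 above the average library on the log2 scale, ahead of Red 177 at 0.773. Iigp1, at 191.4, 265.9 and 396.7 CPM in control livers, 205.7, 259.8 and 355.7 CPM in red-fed and 182.6, 265.2 and 289.6 CPM in tangerine-fed livers, had nearly equal medians. All 6 GTPase genes had a negative estimate for tangerine against control, with a median of -0.159 and none past the threshold. Without Control 182 the median was -0.0904 and 1 of the 6 was positive. Gbp2 was at -0.43 (SE 0.205, adjusted p = 0.888 in edgeR's test) for tangerine against control and at -0.163 without Control 182. Its estimate for red against control changed sign, from -0.163 to 0.102. Irgm1, which steers its relatives to the right membranes, was at -0.24 (SE 0.100, adjusted p = 0.220) for tangerine against red.

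The antigen processing members, Psmb8 and Psmb9 of the immunoproteasome and Tap1 of the peptide transporter, were highest in Control 137, 1.09 above the average library on the log2 scale. This is the library with the lowest endothelial and Kupffer marker sums, and their part in the result was not tested. Psmb8 ranged (lowest, median, highest library) over 2.68, 4.19 and 7.36 CPM in control livers, 2.825, 4.305 and 6.36 CPM in red-fed and 3.39, 3.99 and 5.49 CPM in tangerine-fed livers. The ranges of the diets overlapped. None of the 3 genes passed in any diet contrast.

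**Figure D3:**
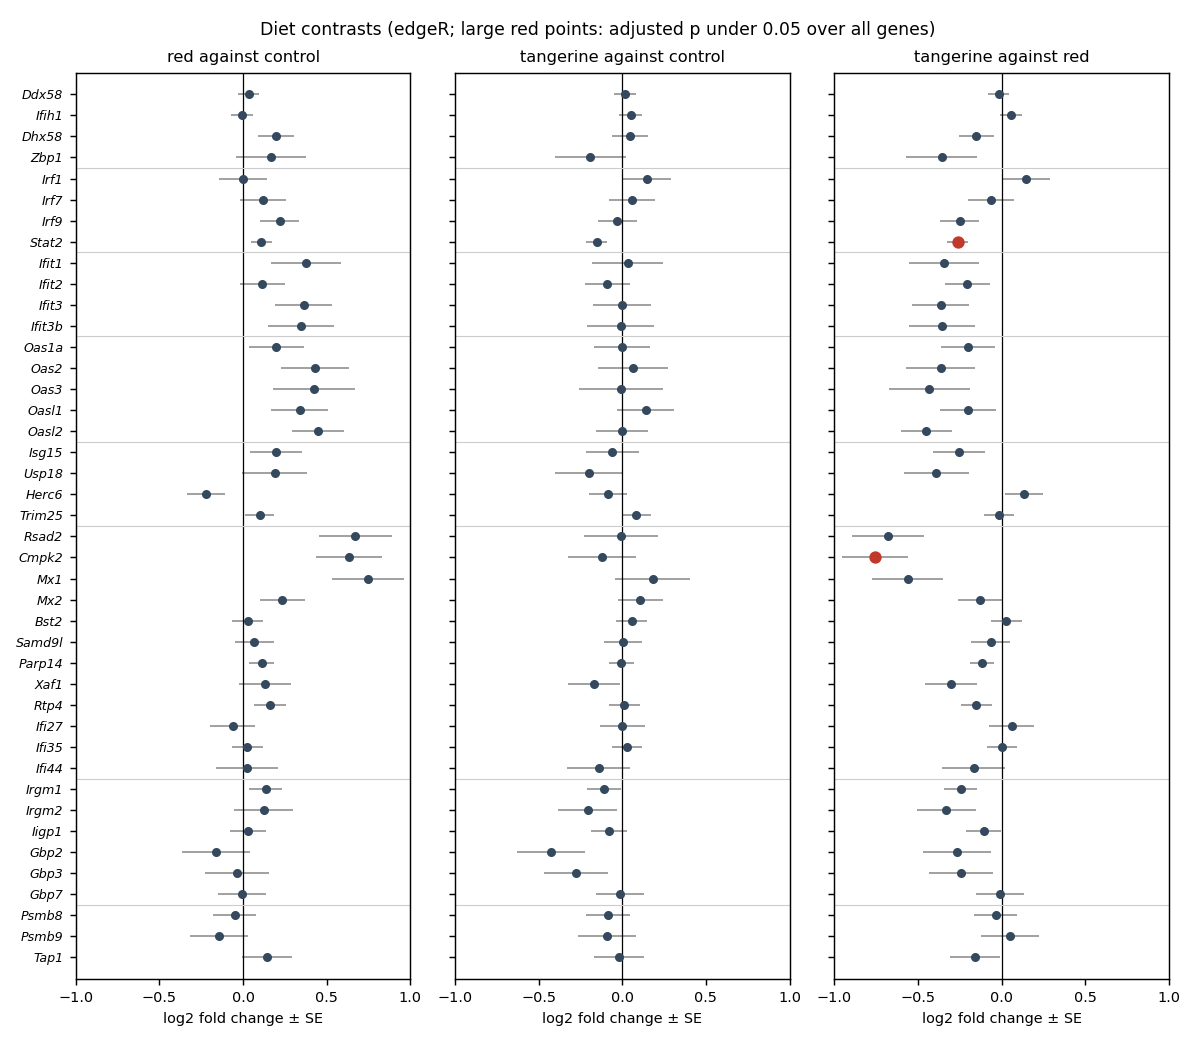
Log2 fold change with its standard error for the 42 tested members (rows, grouped by role) in 3 diet contrasts, from edgeR. The large red points mark the only members past an adjusted p of 0.05, Stat2 and Cmpk2 in tangerine against red. The IFIT and OAS genes, Rsad2, Cmpk2 and Mx1 lie to the right of 0 for red against control and to the left for tangerine against red.

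Further genes of the pathway also held few calls. Of 104 such genes matched to an identifier, 66 were tested. Traf3, an adaptor between the sensors and the kinase TBK1, passed for tangerine against red, as 1 of 11 sensing and adaptor genes tested (1.71% of all genes). Its log2 fold change was -0.25 (SE 0.0669, adjusted p = 0.0400 in edgeR's test). With the clock score in the model, 0 of 14068 genes passed for tangerine against red. Tor3a, an interferon-induced ATPase of the torsin family, passed the test for any difference among the diets (adjusted p = 0.0376, edgeR), as did 1.18% of all genes. Its estimate for red against control was 0.48 (SE 0.119, adjusted p = 0.0604 in edgeR's test). None of 5 receptor genes and 6 inhibitor genes passed for any diet contrast.

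Between mice on the same diet, many members moved with Irf7. A slope was fitted for each gene on the log2 CPM of Irf7 with diet in the model, so that it gives the log2 change of a gene per doubling of Irf7 among mice of a diet. Of the 41 other tested members, 18 had a slope past the threshold, all positive, in edgeR's test, where 0.810% of all genes passed and 0.540% did so with a positive slope. In all, 40 of 41 slopes were positive, with a median of 0.575 against 0.00829 over all genes tested, and 31 had an unadjusted p under 0.05 against 22.4% of all genes. Every value of such a fit shares its libraries and their depth with Irf7, so it describes covariation among these 36 livers.

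Irf9 had the smallest p of the members and the second smallest of all genes, with a slope of 0.67 (SE 0.0895, adjusted p = 4.26e-05 in edgeR's test). Xaf1, an interferon-induced gene linked to cell death, had 0.88 (SE 0.121, adjusted p = 6.39e-05), Zbp1 1.10 (SE 0.184, adjusted p = 0.000771) and Gbp3 0.995 (SE 0.166, adjusted p = 0.000771) in edgeR's test. All 3 antigen processing genes passed, with slopes of 0.67 for Psmb8, 0.91 for Psmb9 and 0.80 for Tap1. Among the GTPase genes, Irgm1 (0.53), Irgm2 (0.82) and Gbp3 passed, and Gbp2 (0.79, SE 0.209, adjusted p = 0.0558), Gbp7 (0.23) and Iigp1 (0.16) did not. Isg15 had a slope of 0.75 (SE 0.155, adjusted p = 0.00978), Oasl1 of 0.75 (SE 0.18, adjusted p = 0.0396) and Ifi27 of 0.60 (SE 0.133, adjusted p = 0.0201) in edgeR's test. The other members past the threshold were Oas1a (0.74), Dhx58 (0.49), Rtp4 (0.44), Ifi35 (0.41), Parp14 (0.35) and Stat2 (0.26).

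Other members had steep slopes with wide errors or slopes near 0. The IFIT genes had slopes of 0.33 to 0.78, and 0 of 4 passed. Rsad2, Cmpk2 and Mx1, the members with the largest estimates in the contrasts that involve red tomato, had slopes of 0.48 (SE 0.275), 0.53 (SE 0.236) and 0.50 (SE 0.266), none past the threshold. Trim25, Samd9l and Herc6 lay near 0 at 0.01, 0.01 and -0.05, and the RNA helicase genes Ddx58 and Ifih1 at 0.13 and 0.06 did not pass either.

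**Figure D4:**
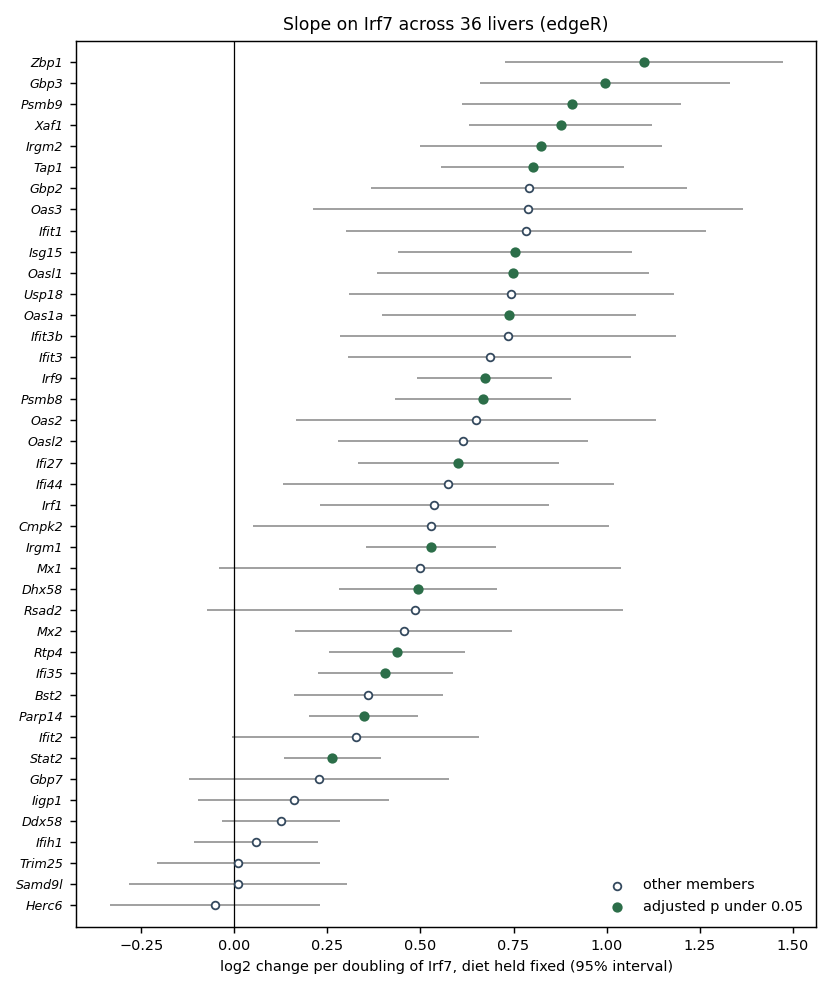
Slope of each of 41 members on Irf7 (log2 change per doubling of Irf7 with diet held fixed, bars the 95% interval, from edgeR). Filled points mark the 18 members with an adjusted p under 0.05, from Zbp1 at 1.10 down to Stat2 at 0.26, and Herc6 is the only member with a slope below 0.

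**Figure D5:**
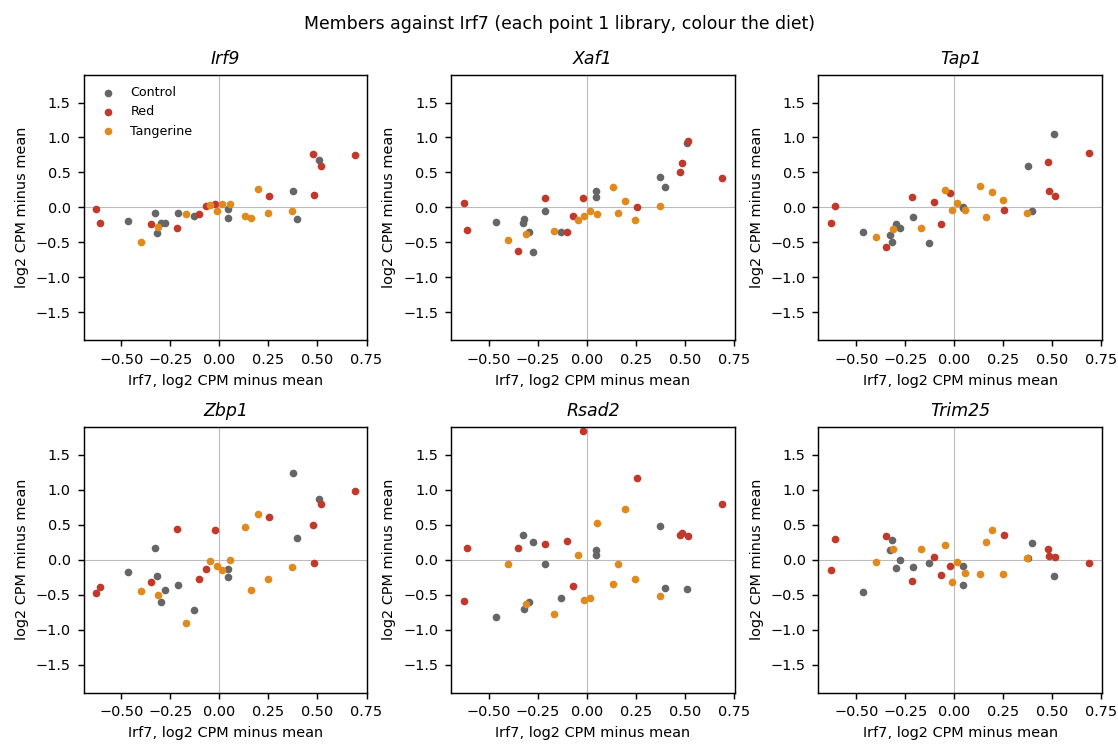
Log2 CPM of 6 members against that of Irf7, each minus its mean over the 36 libraries, with the diet by colour. Irf9, Xaf1, Tap1 and Zbp1 rise to the right in points of all diets, Rsad2 has its highest point (Red 133) at a middle level of Irf7, and Trim25 is level.

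Most slopes on Irf7 were also positive within each diet. Of 41 members, 34 had a positive slope among control livers, 40 among red and 36 among tangerine livers, with medians of 0.46, 0.585 and 0.662. Over all genes 51.7%, 47.4% and 49.8% were positive, with medians of 0.0141, -0.0116 and -0.00176. With 12 libraries a diet none passed the adjusted threshold in edgeR's test, where 0 of all genes did in control and tangerine livers and 0.0213% in red livers. A positive slope with an unadjusted p under 0.05 was found for 14, 29 and 17 members, where 7.44%, 3.95% and 3.70% of all genes had one. Leaving out each library in turn gave 14 to 26 members past the threshold, while the calls over all genes ran from 27 without Red 177 (14 members) to 1097 without Red 202 (23 members). Without Red 177 and Red 202, the libraries farthest from the median of Irf7, 18 members passed among 135 genes in all, and without Control 137 and Tangerine 225 15 did among 53 genes.

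Markers of other cell types were read from the same fit. All 8 Kupffer cell markers had positive slopes, with a median of 0.165 and none past the threshold in edgeR's test. Of 5 tested endothelial markers 2 were positive, with none past the threshold, and their part in the slopes was not tested. Both tested monocyte markers were positive, with a median of 0.505 and none past the threshold. All 7 tested T cell markers had negative slopes with a median of -1.43, and without Red 186 6 of the 7 were positive with a median of 0.384, none past the threshold in either fit. With the T cell markers in the model 20 members passed among 129 genes in all, and without Red 186 18 did among 77 genes.

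The promoters of 3 members with a slope on Irf7 and an ISRE-type match close to the start are shown beside that of Tap1, which also followed Irf7 and whose window held no such match (RefSeq, GRCm38.p6, 250 bases before the start, matches in capitals). Isg15 (chr4:156200819-156201068, minus strand) held 3 overlapping matches at 78, 72 and 66 bases before the start, Irgm1 (chr11:48871421-48871670, minus strand) 2 at 30 and 24 bases, and Gbp3 (chr3:142559794-142560043, plus strand) 2 at 45 and 39 bases. The Tap1 window (chr17:34187306-34187555, plus strand) lies inside the annotated Psmb9 gene, since the start sites of these neighbours lie 211 bases apart on opposite strands and their transcripts overlap. Counts of the overlap may be shared where the counting did not use strand, which is not given in the sources used here.
Isg15: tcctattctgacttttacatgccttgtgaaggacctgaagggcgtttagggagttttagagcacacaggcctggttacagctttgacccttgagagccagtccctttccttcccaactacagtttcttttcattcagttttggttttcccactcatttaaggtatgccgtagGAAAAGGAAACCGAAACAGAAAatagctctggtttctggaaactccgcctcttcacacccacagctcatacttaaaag
Irgm1: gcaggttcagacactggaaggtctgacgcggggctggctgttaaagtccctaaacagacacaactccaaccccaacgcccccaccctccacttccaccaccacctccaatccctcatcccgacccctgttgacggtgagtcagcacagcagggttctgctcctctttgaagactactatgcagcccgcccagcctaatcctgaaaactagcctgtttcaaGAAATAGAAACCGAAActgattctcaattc
Gbp3: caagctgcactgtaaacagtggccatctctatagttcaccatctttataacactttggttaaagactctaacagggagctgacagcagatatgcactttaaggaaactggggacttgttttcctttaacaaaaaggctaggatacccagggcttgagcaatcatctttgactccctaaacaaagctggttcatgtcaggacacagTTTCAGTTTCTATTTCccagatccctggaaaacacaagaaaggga
Tap1: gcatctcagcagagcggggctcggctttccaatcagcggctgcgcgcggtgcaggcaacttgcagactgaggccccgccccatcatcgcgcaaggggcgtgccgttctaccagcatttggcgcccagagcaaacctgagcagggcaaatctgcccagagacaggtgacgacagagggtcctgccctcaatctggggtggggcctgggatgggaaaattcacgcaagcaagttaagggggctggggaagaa

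Over the members with a window, the ISRE pattern was found in 6 of the 13 that passed on Irf7 (46.2%) and in 8 of the 18 that did not (44.4%).

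Apol9a had the smallest p of all genes, with a slope of 1.34 (SE 0.147, adjusted p = 9.38e-07 in edgeR's test). By the same measure over the 36 libraries, the next genes that no list held were Uba7, the enzyme that activates ISG15, at 0.63, Apol9b at 0.82, BC023105 at 2.27, Gm12250 at 1.21, Gm13203 at 1.32, Gm43302 at 1.16, Mlkl, the executioner of necroptosis, at 0.78, Gm4070 at 1.06 and Selenow at 0.50. Gm43302 covers 29.0% of the exon bases of the untested member Gbp6 on the same strand, so reads of the 2 genes may not have been told apart. Of 40 further interferon-induced genes tested, 11 passed on Irf7 (0.810% of all genes), all with positive slopes (0.540%). They included the class I heavy chain genes H2-K1 (0.38), H2-D1 (0.42) and H2-T22 (0.35), Tap2 (0.37) and Psme1 (0.30) of antigen processing, Lgals3bp (0.49), Shisa5 (0.37), Ly6e (0.48), the lysosomal reductase gene Ifi30 (0.515) and the chemokine gene Cxcl9 (1.38). Of 5 receptor genes 0 passed on Irf7.

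Irf1 marked a smaller group. Of 41 members, 6 had a slope on Irf1 past the threshold in edgeR's test (1.57% of all genes), all positive (1.05%), and 18 had an unadjusted p under 0.05 (20.7%). The 6 were Mx2 (0.65), Tap1 (0.67), Psmb9 (0.74), Irf9 (0.49), Xaf1 (0.60) and Zbp1 (0.78). Without Control 137 and Control 188, the highest and the lowest library for Irf1, 1 member passed, Mx2, among 4 genes in all, and it was the 1 member among 8 genes without Control 137 and Tangerine 225. Within the diets the slopes were positive for 33 of 41 members in control, 40 in red and 19 in tangerine livers. Over all genes 49.1%, 49.6% and 50.2% were positive. The 8 Kupffer cell markers all had negative slopes on Irf1, with a median of -0.284 and none past the threshold. All 5 tested endothelial markers had negative slopes as well, with a median of -0.246. Control 137, the highest library for Irf1, also had the lowest sums of both marker sets, 85.8 and 46.7 CPM. The part of that library in these marker slopes was not tested. The genes outside the lists with the smallest p were Cbx2 (0.78), Rnf186 (1.04), Ccdc166 (0.66), Crem (-0.60), Skil (-0.74), Junb (1.001), Trib3 (1.06), Cbx8 (0.46), Mnt (0.71) and Zfp707 (0.50).

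The libraries that were high in members differed in which roles were high. Red 204 held the highest value of 8 members, with the OAS genes 0.807 and the sensors 0.431 above the average library on the log2 scale. Control 137 held the highest value of another 8, among them Irf1, Bst2, Ifi27, Ifi35, Psmb8, Psmb9 and Tap1. Red 133 held the highest value of 7, with the IFIT genes 1.2 above the average library while its Irf7 level, 14.8 CPM, was near the red median. Red 177 was among the 3 highest libraries for 19 members and Red 203 for 15. Tangerine 216 had the lowest mean over the members, followed by Red 202 and Red 170.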

How the data were processed

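RNA from mouse liver was sequenced as directional libraries made from 1 µg of RNA, per the labels' protocols. The authors deposited 1 table of raw gene-level counts for 36 libraries. FastQC, Trimmomatic, edgeR and the build GRCm38.p6 are named, without versions, per the submitters' processing notes, and the aligner, the counting program, its strand setting and its handling of shared reads are not given in the sources used here. Identifiers were paired with symbols, positions and exon lengths from GENCODE M21 (GRCm38), where 53620 of 53715 had a symbol.

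Counts were tested with edgeR 4.0.16 (R 4.3.3): genes with too few counts were dropped (filterByExpr, minimum count 10, total 15, share 0.7), library sizes were scaled by TMM, and the robust quasi-likelihood F test was fitted once over all genes and all 36 libraries. P-values were adjusted by Benjamini-Hochberg over all genes tested, with a threshold of 0.05. Slopes used the log2 CPM (prior count 2) of Irf7 or Irf1 with diet in the model. Libraries held 21290169 to 33810573 counts. The labels number each library differently, and if these were not separate mice the p-values measure only the spread between samples. The fits were tested on simulated data. Alternatives were other scaling, filters, tests (DESeq2 1.42.0, limma 3.58.1 voom with sample weights), covariates and libraries left out. Promoter windows come from RefSeq (GRCm38.p6) and were matched by symbol for 34 of 45 members.

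The members, the further gene lists and the tests were chosen with earlier results of these data known. Full values are given for members past the threshold in a diet contrast and for Irf7, Isg15, Ifit1, Usp18, Oasl1, Gbp2, Iigp1, Psmb8, Stat2, Irf1, Ifi27 and Ifi44. Outside the lists, the 10 genes with the smallest p for each slope are named. The alternatives that leave out Control 137 with Tangerine 225, each library in turn, the 1 library that is highest for a gene or marker list, or all but 1 diet were chosen after seeing the data. One gene of the pathway lists is not reported here.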

Additional observations from a re-analysis of the deposited data

Results flagged for a closer look

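Stat2 and Cmpk2 stood out because the difference between the tomato diets passed its own test. Stat2 was lower on tangerine than on red tomato by a log2 fold change of -0.2633 and Cmpk2 by -0.754 in edgeR's test over 14068 genes. The summed T cell markers of Red 186 stood out as a signal outside the interferon genes, at 374.6 CPM against a highest control value of 8.356 CPM. Red 186 was the highest library for 1 member, Samd9l. Diet groups of 12 libraries were not searched for single outlying values.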

How the results depend on the processing

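For tangerine against red, where 2 members passed, 0 passed with the clock score as covariate, 0 with mouse number as covariate and 0 without a filter on low counts, and 1 passed with only the groups compared, without Red 186 and Tangerine 216, or without Control 137 and Tangerine 225. Leaving out each library in turn gave 0 to 3. For red against control limma-voom passed 2 (Stat2 and Herc6) in place of 0, with 1482 genes in all in place of 21. For any difference among the diets, 0 in edgeR (166 genes in all) became 3 in the DESeq2 test (383 genes) and 3 in limma-voom (1111 genes), and 1 with the T cell markers as covariate, without Red 186, without Red 186 and Tangerine 216, or without Control 137 and Tangerine 225 (152, 146, 77 and 203 genes). For the slope on Irf7, 18 became 0 in control, 0 in red and 0 in tangerine livers alone, and 14 to 26 when each library was left out (27 to 1097 genes in all). For the slope on Irf1, 6 (221 genes in all) became 2 in limma-voom (23 genes), 1 without the 2 libraries farthest from its median, 1 without Control 137 and Tangerine 225, and 0 in each diet alone. Fits within 1 diet hold fewer samples, and elsewhere the cause was not tested. Besides the fits without 1 library given in the report, 808 values of single genes were recomputed. Of these, 798 kept their side of the threshold, 9 lost it, 1 gained it and 0 of the called ones reversed. Most of the 808 were not called in the main fit and had no call to lose, and 54 uncalled ones changed sign. All 9 losses were of Stat2 or Cmpk2 for tangerine against red, the only diet calls among the members. Over all genes, 241 calls for tangerine against red became 136 without the filter, 333 with only the groups compared, 32 with mouse number and 0 with the clock score. No paired analysis was possible because the library numbers differ in every diet. Depth limits the scarcest members: Oas3 had 4 to 45 counts per library.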
